A study of Mus musculus with 15 samples.

Results

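The cytosolic ribosomal protein genes of 21EM15 cells, an immortalized mouse lens epithelial line, were examined as a group of 79 genes. They were chosen by their symbol alone (Rpl, Rps or Rplp followed by a number and, in some, the letters a, x, y or l, together with *Rpsa*), leaving out symbols that carry -ps, which mark pseudogenes, and the S6 kinase genes. *Rps3a2*, which GENCODE vM21 lists as a processed pseudogene with no coding sequence, has a symbol that matches and stayed among the 79; it was called in neither comparison. All 79 were present in both sets of libraries, among 11677 genes measured in the cultures and 11299 in the microdissected regions. *Rpl13*, *Rpl24* and *Rps10* were not analysed here. The data are 3′ end RNA sequencing libraries of 4 samples of 2D cultures (adherent cells on dishes), 4 samples of whole 3D spheroids (cells kept unattached in round-bottom wells, many spheroids pooled per sample), and 4 internal and 3 external samples cut from spheroid sections by laser capture microdissection. All samples were labelled wild type, with no treatment named, and came from the same line, so that they describe an immortalized line rather than lens tissue. A further external sample that the study set aside after its principal component analysis was not analysed here. It was set aside because its expression differed from the other external samples. The external spread behind the p-values and overlaps of the regions may therefore be too small. Spheroids were grown for longer than dishes usually take to reach the confluence at which they were harvested. Time in culture and cell density therefore cannot be told apart from 3D growth. By the study's methods each 2D sample came from a dish and each 3D or microdissected sample from a pool of spheroids. Neither these nor the labels say whether the dishes and pools were grown at separate times, and p-values therefore measure the spread between these samples, which may in part be technical.

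Ribosomal proteins assemble with ribosomal RNA into a small subunit, which reads the mRNA, and a large subunit, which forms the peptide bonds. In mammals nearly all of these proteins are needed in equal number, and most are encoded by a gene that is active in every cell. Their mRNAs begin with a cytosine followed by an unbroken run of pyrimidines, the 5′ terminal oligopyrimidine (TOP) sequence, through which their translation follows growth signals sent by the mTOR kinase and read by the protein Larp1. In the lens, epithelial cells divide, whereas fiber cells leave the cell cycle and lose their organelles. The libraries measure mRNA only, and neither translation nor ribosome number was measured.

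The bases around the annotated gene start are shown for 8 of the genes, because the runs of C and T there belong to the feature that ribosomal protein mRNAs share and that the choice by symbol did not use. Each window runs 5′ to 3′ on the gene's strand from 15 bases before the start to the 15 bases from it on (RefSeq, GRCm38.p6), with the longest run of C and T in capitals. *Rpl27a*, *Rpl35*, *Rps27* and *Rplp2* hold long runs, *Rpl22l1* holds a longer run than its paralog *Rpl22*, and *Rpsa* and *Rpl7l1* hold short ones.
Rpl27a: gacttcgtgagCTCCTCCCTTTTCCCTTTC
Rpl35: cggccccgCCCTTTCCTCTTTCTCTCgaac
Rps27: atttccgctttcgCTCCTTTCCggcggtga
Rplp2: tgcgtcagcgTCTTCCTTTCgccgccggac
Rpl22l1: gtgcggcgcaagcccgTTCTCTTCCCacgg
Rpl22: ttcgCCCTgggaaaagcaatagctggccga
Rpsa: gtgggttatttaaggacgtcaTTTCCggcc
Rpl7l1: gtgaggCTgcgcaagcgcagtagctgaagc

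A start was found in the RefSeq promoter set for 58 of the 79 genes. A run of at least 8 bases made only of C and T lay within these windows in 23 of the 58 (39.7%), against 11.9% of 27025 genes of all kinds, and the median of the longest run was 6 bases against 4. Annotated starts can lie some bases away from the start that cells use, and a window without a run says only that these letters are not in it. The runs are taken up again below with the fold changes.

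Values are log2 CPM as deposited, the log2 of read counts with a small prior count, scaled to an adjusted library size. The spacing of the values shows that these sizes are not the plain totals of reads. Shares of reads, given below, were taken from the plain totals. Each mRNA is read near its 3′ end, and a longer transcript does not give more reads for its length. The culture libraries held 7305053 to 9362587 reads over the genes listed, and the region libraries 4044230 to 11702504. The lens genes *Pax6*, *Six3*, *Crim1*, *Dkk3* and *Cryab* were measured in all samples, while *Foxe3* and *Cdh1* were not found among the listed genes. The immune marker *Cd68* made up at most 0.0006% of the reads of any sample, and *Ptprc* was not listed. Both sets of libraries were normalized separately and their RNA was extracted with different kits, so that levels are compared only within each set.

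The ribosomal protein genes took a larger part of the 3D libraries than of the 2D libraries, and a smaller part of the internal than of the external libraries. In 2D cultures they gave 12.7, 13.2, 11.7 and 10.1% of all reads (mean 11.9% ± 1.39, SD, n = 4). In 3D spheroids they gave 14.1, 16.4, 14.2 and 15.2% (14.96% ± 1.08, n = 4), and every 3D sample lay above every 2D sample. The external samples gave 11.3, 12.5 and 12.6% (12.2% ± 0.701, n = 3), whereas the internal samples gave 7.21, 7.45, 7.72 and 6.91% (7.32% ± 0.346, n = 4), with no overlap. The 95% Wilson interval of the library with the fewest reads, the third external sample, ran from 12.59 to 12.65%, so that counting error, which is all it covers, was far smaller than the spread between samples. The mean share was thus 1.26-fold higher in 3D than in 2D and 1.66-fold lower in the internal than in the external region. A share is relative to the other RNAs of a library, and in bulk samples fewer cells of a type and less RNA per cell cannot be told apart. Reads from 7 mitochondrially encoded genes were also a larger share in 3D and in the internal part, going from 2.27–3.72% in 2D to 4.02–6.23% in 3D and from 2.53–3.60% in external to 5.42–6.98% in internal samples. With these genes removed from the totals, the difference in share was 3.40 percentage points for 3D and -4.74 for the internal region, against 3.05 and -4.83 with them.

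**Figure D1:**
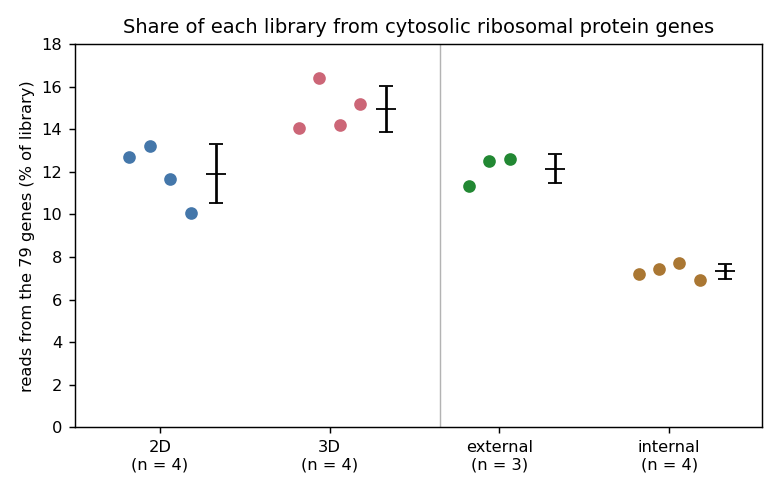
Percent of each library's reads that came from the 79 ribosomal protein genes, on a linear axis from 0, for the 2D, 3D, external and internal samples. Points are samples, the bar beside each group gives its mean ± SD, and the vertical line separates both sets of libraries, within which neither pair of groups overlaps.

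Spheroid culture went with a modest rise across the ribosomal protein genes. The median log2 fold change (3D minus 2D) over the 79 genes was 0.35, with a middle range (quartiles) of 0.21 to 0.49, whereas the median of all 11677 genes was -0.03. Higher values in 3D were found for 74 of the 79 genes and lower values for 5. By limma with Benjamini-Hochberg adjustment over all genes, 14 (17.7%) rose at an adjusted p under 0.05, compared with 9.74% of all genes that rose, and none of the 79 fell, compared with 9.25% of all genes that fell. At an unadjusted p under 0.05 there were 37 of the 79 genes in both directions together, and 3930 of all 11677 genes. The groups did not overlap, with 3D higher, for 23 of the 79 genes (29.1%) against 12.0% of all genes, and for none with 3D lower against 12.0%. None passed the stricter threshold of an adjusted p under 0.01 with a change over 1 on the log2 scale, which 2.92% of all genes passed upward and 1.51% downward. The count of 14 changed with the samples used, while the median fold change stayed between 0.29 and 0.39. It was 19 without 2D replicate 1 and 15 without 2D replicate 2. It dropped to 7 without 2D replicate 3, to 9 without 2D replicate 4, and to 8, 7, 9 and 5 without 3D replicate 1, 2, 3 and 4. *Rps27*, *Rpl39*, *Rpl17*, *Rps29* and *Rpl36a* remained called whichever sample was left out.

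*Rps27*, which encodes a zinc-finger protein of the small subunit, had the largest rise in 3D. Its log2 CPM was 10.66, 10.33, 10.50 and 10.53 in the 2D samples and 11.63, 11.61, 11.33 and 11.43 in the 3D samples. All 3D values lay well above all 2D values, a log2 fold change of 0.996 ± 0.14 (SE), adjusted p = 0.00158, or 2-fold. The gene lies at chr3:90212522-90213651 (GRCm38, GENCODE vM21), and all 50-nt stretches searched near its 3′ end are also found in other genes, among them *Rps27rt* and *Rps27-ps1*. Since only uniquely mapped reads were counted, some of its reads may have been lost or placed on a copy, and its level is uncertain for that reason.

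*Rpl39* and *Rpl17* encode large-subunit proteins that line the tunnel through which the new peptide leaves. *Rpl39* measured 11.37, 11.15, 11.12 and 10.81 log2 CPM in 2D and 12.14, 12.27, 11.81 and 11.95 in 3D. For *Rpl17* the values were 10.25, 9.63, 9.75 and 9.60 in 2D and 10.56, 10.73, 10.71 and 10.78 in 3D. Neither gene overlapped between the groups, and the rises were 0.93 ± 0.17 (SE), adjusted p = 0.00515 for *Rpl39* and 0.88 ± 0.16 (SE), adjusted p = 0.00515 for *Rpl17*.

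Further genes that rose, all by less, belonged to both subunits. Of the large subunit, *Rpl35* (0.77), *Rpl36a* (0.72), *Rpl34* (0.68), *Rpl22* (0.52) and *Rpl26* (0.47) were called on the log2 fold change scale. Of the small subunit, *Rps14* (0.75), *Rps29* (0.63), *Rps21* (0.56) and *Rps3* (0.47) were called. *Rps14* is the gene whose loss underlies the anaemia of the human 5q- syndrome, and *Rps3* encodes a protein at the channel where mRNA enters. Their adjusted p-values by limma ran from 0.0122 for *Rpl36a* to 0.033 for *Rpl26*. Counted by subunit, 7 of 41 large-subunit genes and 5 of 31 small-subunit genes rose, against 9.74% of all genes. The median log2 fold changes were 0.35 and 0.37 in the same order. These counts leave out the 3 stalk genes *Rplp0*, *Rplp1* and *Rplp2* and the 4 paralogs *Rpl22l1*, *Rps27l*, *Rpl7l1* and *Rpl36al*. Among the genes left out, *Rplp2* and *Rpl22l1* rose.

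The proteins of the P stalk, which recruits elongation factors to the ribosome, had log2 fold changes between 0.19 and 0.46. *Rplp2* measured 11.11, 11.18, 11.07 and 10.85 log2 CPM in 2D and 11.40, 11.63, 11.41 and 11.60 in 3D, without overlap, and rose by 0.46 ± 0.14 (SE, adjusted p = 0.0405 by limma). Of 8 fits that each left out a sample, this call held in 1, without 2D replicate 2. For *Rplp1* the log2 fold change was 0.38 ± 0.15 (SE), adjusted p = 0.108, and for *Rplp0* it was 0.19 ± 0.16 (SE), adjusted p = 0.438, and neither passed the test. *Rpl5* and *Rpl11* encode the proteins that bind the 5S ribosomal RNA and, when free, the p53 regulator Mdm2. Their log2 fold changes were 0.22 (95% interval -0.13 to 0.58) and 0.26 (-0.09 to 0.62), neither called.

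Several abundant members stayed close to 0. *Rpsa*, the small-subunit protein also known as the laminin receptor precursor, measured 11.02, 11.25, 10.97 and 10.61 in 2D and 10.88, 11.17, 10.87 and 11.11 in 3D. These values interleave, and the log2 fold change was 0.05 with a 95% interval of -0.31 to 0.40. *Rpl8*, at -0.11 (-0.53 to 0.32), and *Rps2*, at -0.06 (-0.47 to 0.36), were the only members below 0 besides the 3 paralogs described next. *Rps20* had the highest level of all members in every group mean, 12.41, 12.62, 12.19 and 11.95 log2 CPM in 2D and 12.61, 13.03, 12.75 and 12.85 in 3D. Its groups overlapped slightly, and its log2 fold change of 0.51 ± 0.19 (SE), adjusted p = 0.0796, did not pass the test except without 2D replicate 2. *Rps6*, the substrate of the S6 kinases, had the lowest mean level of the members in the cultures, with between 21 and 126 reads per sample. It measured 3.75, 1.64, 2.46 and 2.67 in 2D and 3.96, 2.56, 3.41 and 3.74 in 3D, and its log2 fold change of 0.79 had a wide interval (-0.19 to 1.77, adjusted p = 0.239 by limma). Of the stretches searched near the 3′ end of *Rps6*, 78.6% are shared with 11 other genes.

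**Figure D2:**
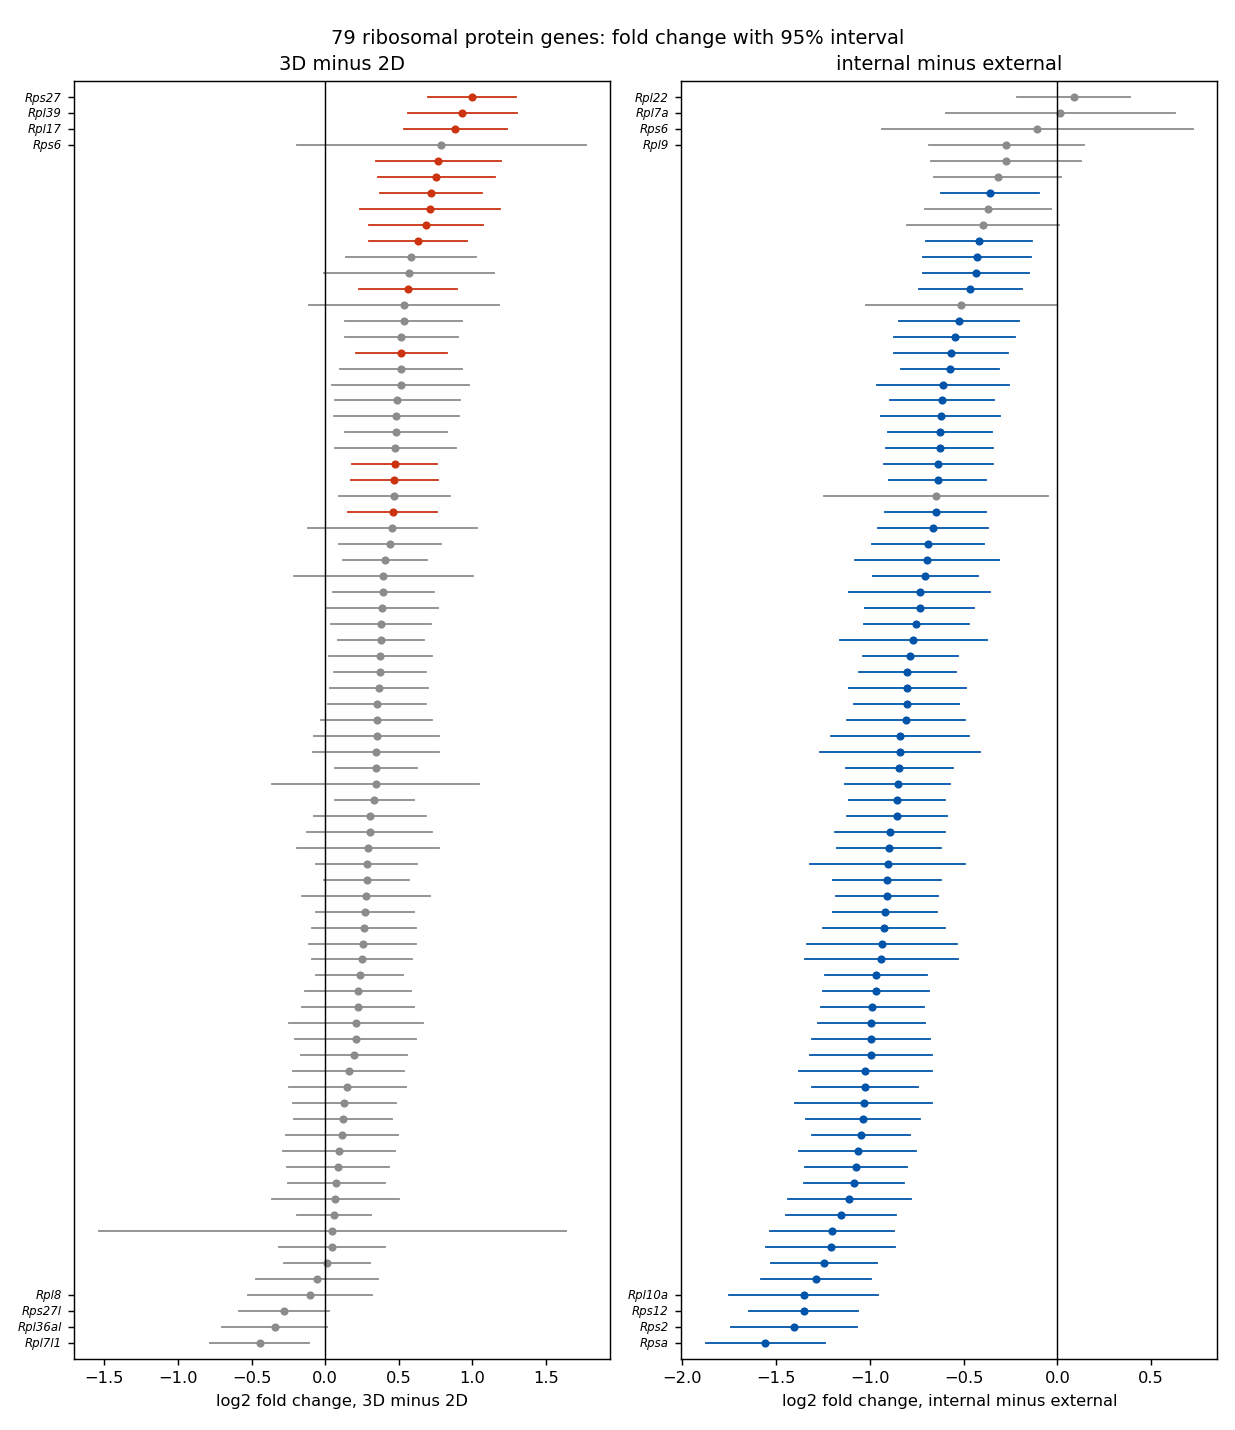
Log2 fold change of each of the 79 genes with its 95% interval, sorted, for 3D minus 2D (left) and internal minus external (right). Red marks genes that rose and blue genes that fell at an adjusted p under 0.05, grey the others: 14 are red on the left and 69 are blue on the right. Names are given for the 4 genes at the top and the 4 at the bottom of each panel.

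In 2 of the 4 paralog pairs that could be measured, the values of the paralog relative to its partner did not overlap between 2D and 3D, though neither pair passed the test after adjustment over the 4 pairs. *Rps27l* encodes a close relative of the Rps27 protein and is a target of p53. It measured 9.24, 9.27, 9.58 and 9.16 log2 CPM in 2D and 8.98, 9.23, 8.82 and 9.11 in 3D, a log2 fold change of -0.28 ± 0.14 (SE), adjusted p = 0.187, while *Rps27* rose. The difference *Rps27l* minus *Rps27* was -1.41, -1.06, -0.92 and -1.37 in the 2D samples and -2.66, -2.37, -2.51 and -2.32 in the 3D samples. The paralog was thus 2.42-fold lower relative to its partner in 3D, with no overlap (exact permutation test, two-sided p = 0.0286, the smallest that 4 against 4 samples allow; 0.0571 after Benjamini-Hochberg adjustment over the 4 pairs).

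*Rpl36al*, the paralog of *Rpl36a* on another chromosome, gave a like picture. Its log2 CPM was 7.02, 7.32, 7.23 and 6.90 in 2D and 6.60, 7.17, 6.68 and 6.62 in 3D (-0.34 ± 0.16 (SE), adjusted p = 0.16), against a rise of 0.72 for *Rpl36a*. Relative to *Rpl36a* it stood at -3.45, -3.22, -3.004 and -3.10 in 2D and -4.30, -4.07, -4.19 and -4.46 in 3D on the log2 scale. That is 2.09-fold lower in 3D, again with no overlap (exact permutation test, p = 0.0286, adjusted 0.0571). *Rpl36a* shares all of the stretches searched near its 3′ end with other genes and *Rpl36al* shares 64.2%, so that reads of both could be lost as not unique. Neither was among the genes found to share a stretch with the other. *Rpl7l1*, the paralog of *Rpl7*, was 1.63-fold lower relative to its partner in 3D, but the groups overlapped (exact permutation test, p = 0.0857, adjusted 0.114). *Rpl7l1* itself measured 6.61, 6.35, 6.70 and 6.97 in 2D and 6.13, 6.09, 6.41 and 6.21 in 3D, a log2 fold change of -0.45 ± 0.15 (SE), adjusted p = 0.0661, which was the lowest of the 79.

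*Rpl22l1* did not share this pattern, since it rose together with *Rpl22*. It measured 9.16, 8.57, 7.996 and 8.58 log2 CPM in 2D and 9.42, 9.41, 9.03 and 9.30 in 3D, rising by 0.71 ± 0.21 (SE, adjusted p = 0.0422 by limma). Its call held in 1 of 8 fits that left out a sample, without 2D replicate 1, and that of *Rpl22* in 3 of 8. The pair's difference was -1.34, -1.61, -2.62 and -1.72 in 2D and -1.42, -1.38, -1.94 and -1.77 in 3D, with overlap (exact permutation test, p = 0.686). The mean difference of the pair between 3D and 2D, 0.19, turned to -0.071 without 2D replicate 3, and no direction is given for it. *Rpl39l*, *Rpl3l*, *Rpl10l* and *Rps4l*, the paralogs of other members, were not analysed here.

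**Figure D3:**
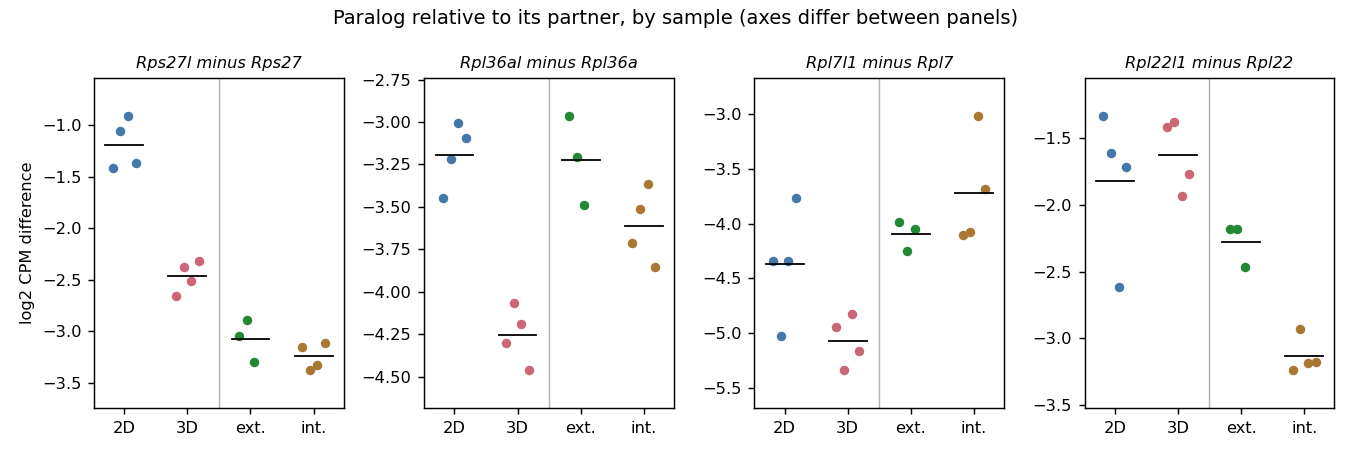
Log2 CPM of each paralog minus that of its partner, per sample, in the 2D, 3D, external (ext.) and internal (int.) groups. Points are samples, horizontal lines are group means, and axes differ between panels: the 2D and 3D points are apart for Rps27l and Rpl36al, and the external and internal points for Rpl22l1.

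Between the regions of the spheroids, most ribosomal protein genes were lower in the internal part. The median log2 fold change (internal minus external) was -0.81 (quartiles -0.99 and -0.62), against 0.04 for all 11299 genes, and 77 of the 79 genes had a negative value. By limma, 69 of the 79 (87.3%) fell at an adjusted p under 0.05, compared with 12.1% of all genes that fell, and none rose, compared with 9.58%. At the stricter threshold 18 (22.8%) fell against 4.35% of all genes, and none rose against 3.27%. The groups did not overlap, with the internal part lower, for 66 of the 79 genes (83.5%) against 15.4% of all genes, and for none with the internal part higher against 13.5%. Leaving out each sample in turn gave between 63 and 69 genes lower, and 57 of the 69 genes were called each time. The stricter count of 18 changed more, to 6 with no variance trend, to 9 with scaling to library totals and to 30 without the first external sample, and lay between 13 and 22 under the other alternatives. Scaling to library totals moved the median of all genes from 0.04 to 0.15, and the members' median relative to that of all genes was -0.85 under both scalings.

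*Rpsa* had the largest drop. It measured 10.85, 11.19 and 11.63 log2 CPM in the external samples and 9.62, 9.64, 9.85 and 9.54 in the internal samples. Every internal value lay below every external value, and the log2 fold change was -1.56 ± 0.15 (SE), adjusted p = 1.30e-07, or 2.94-fold lower. *Rps2*, at the mRNA entry channel of the small subunit, measured 8.61, 8.66 and 9.17 and 7.13, 7.31, 7.57 and 7.64, a change of -1.40 ± 0.16 (SE), adjusted p = 1.16e-06. *Rps12*, another small-subunit gene, went from 11.66, 11.95 and 12.20 to 10.50, 10.56, 10.75 and 10.51 (-1.35 ± 0.14 (SE), adjusted p = 2.80e-07). In all 3 genes both groups were well apart.

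The large subunit was led by *Rpl10a* and the P stalk. *Rpl10a* encodes the protein of the mobile L1 stalk near the exit site for transfer RNA, and measured 7.76, 7.67 and 8.34 in external and 6.37, 6.27, 7.04 and 6.60 in internal samples (-1.35 ± 0.19 (SE), adjusted p = 1.57e-05). *Rplp0*, the base of the P stalk, measured 10.61, 10.86 and 10.93 and 9.37, 9.42, 9.78 and 9.65, and *Rplp1* 9.89, 10.34 and 10.51 and 8.99, 9.01, 8.97 and 8.87. The fold changes were -1.25 ± 0.14 (SE), adjusted p = 5.73e-07 for *Rplp0*, and -1.29 ± 0.14 (SE), adjusted p = 5.73e-07 for *Rplp1*. The internal values of *Rplp1* lay close together (SD 0.06, n = 4). *Rplp2* fell by less (-0.91 ± 0.13 (SE), adjusted p = 1.99e-05), and with it all 3 stalk genes were lower.

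Among the other genes past the stricter threshold, *Rpl28* (-1.21), *Rpl41* (-1.20), *Rpl32* (-1.08), *Rpl37a* (-1.07), *Rpl13a* (-1.03), *Rpl18* (-1.03) and the paralog *Rpl36al* (-1.02) belonged to the large subunit, with log2 fold changes in parentheses. *Rpl41* encodes the smallest ribosomal protein, and *Rpl13a* a protein that is also known for silencing inflammatory mRNAs when released from the ribosome. Those of the small subunit included *Rps7* (-1.15), *Rps27a* (-1.11), *Rps16* (-1.07) and *Rps9* (-1.04). *Rps27a* is made as a fusion with ubiquitin and so also supplies free ubiquitin. Their adjusted p-values by limma were at most 1.42e-04 (*Rpl13a*), and the groups overlapped in none of them.

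*Rpl5* and *Rpl11* fell by less than these, -0.62 ± 0.15 (SE) and -0.84 ± 0.14 (adjusted p = 0.00491 and 8.81e-05 by limma). *Rps20*, the member with the highest level, went from 13.52, 13.87 and 13.36 in external to 12.86, 12.59, 12.65 and 12.55 in internal samples (-0.93 ± 0.16 (SE), adjusted p = 1.23e-04). By subunit, 36 of 41 large-subunit genes and 27 of 31 small-subunit genes fell, against 12.1% of all genes, with medians of -0.80 and -0.85. These counts leave out the 3 stalk genes, which all fell, and the 4 paralogs *Rpl22l1*, *Rps27l*, *Rpl7l1* and *Rpl36al*, of which 3 fell.

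The 10 genes that were not called between the regions were *Rpl22*, *Rpl7a*, *Rps6*, *Rpl9*, *Rpl7l1*, *Rpl27*, *Rps23*, *Rpl35a*, *Rps18* and *Rps3a2*. *Rpl22* encodes a large-subunit protein that also binds viral and cellular RNAs, and had the highest log2 fold change of the 79. It measured 10.25, 10.14 and 9.69 log2 CPM in the external and 9.99, 10.17, 10.34 and 9.95 in the internal samples. Its groups interleave, and the interval of its log2 fold change (0.09, 95% interval -0.22 to 0.39) lies above the median of the 79 genes. Without the third external sample its value was -0.08. *Rpl7a* stood at 0.02 with a wide interval of -0.59 to 0.62. This interval and those of *Rpl9* (-0.69 to 0.14) and *Rpl7l1* (-0.67 to 0.13) held 0 and did not reach that median, whereas that of *Rps6* (-0.94 to 0.72) held both values. *Rpl22*, *Rpl7a*, *Rps6* and *Rpl9* change sign under another scaling or when a sample is left out, and no direction is given for them.

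The values of *Rpl22l1* relative to *Rpl22* did not overlap between the regions, a difference that 4 against 3 samples cannot bring past the test. *Rpl22l1* measured 8.07, 7.96 and 7.22 log2 CPM in external and 6.75, 7.24, 7.15 and 6.78 in internal samples and fell by 0.77 ± 0.19 (SE, adjusted p = 0.00471 by limma). The difference *Rpl22l1* minus *Rpl22* was -2.18, -2.19 and -2.47 in external and -3.24, -2.93, -3.19 and -3.18 in internal samples. The paralog was 1.81-fold lower relative to *Rpl22* in the internal part without overlap (exact permutation test, p = 0.0571, adjusted 0.229). The other 3 pairs overlapped between the regions, with exact permutation p-values of 0.114 for *Rpl36al*, 0.229 for *Rps27l* and 0.343 for *Rpl7l1*. *Rps27* and *Rpl39*, the leaders of the rise in 3D, fell by 0.46 and 0.43 between the regions (adjusted p = 0.0132 and 0.0283 by limma), less than most members. These calls depended on the samples. That of *Rps27* was lost without internal replicate 1, and that of *Rpl39* without external replicate 1 or 2 or internal replicate 1 or 4, with adjusted p-values of up to 0.107 and 0.168 over all alternatives.

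**Figure D4:**
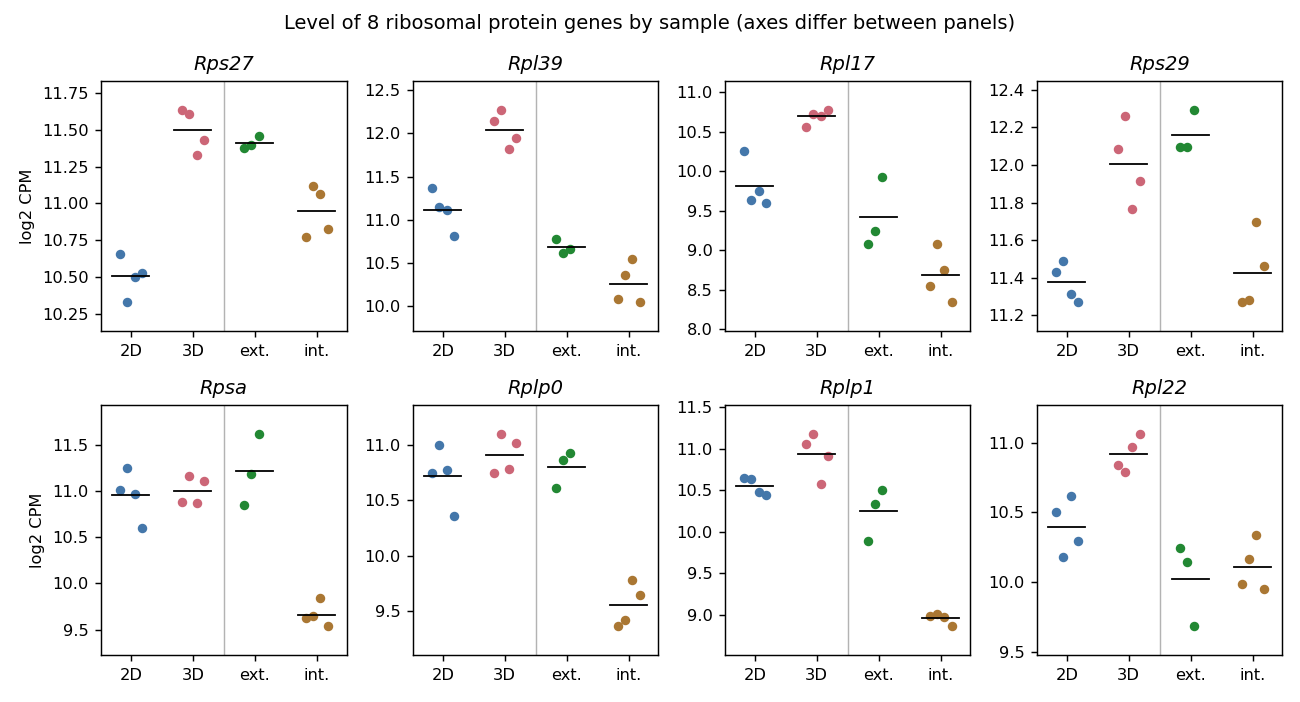
Log2 CPM of 8 ribosomal protein genes in every 2D, 3D, external (ext.) and internal (int.) sample, with group means as lines. Levels are comparable within each side of the vertical line and axes differ between panels: Rps27, Rpl39 and Rps29 do not overlap between 2D and 3D or between the regions, Rpl17 and Rpl22 do not between 2D and 3D, and Rpsa, Rplp0 and Rplp1 do not between the regions.

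Set side by side, 72 of the 79 genes had a positive value in 3D and a negative value in the internal region, 5 were negative in both and 2 positive in both. Across the 79 genes the log2 fold changes of the 2 comparisons, which share no samples, had a Pearson correlation of 0.24 and a Spearman correlation of 0.29, given as a description since genes are not independent replicates. *Rpsa*, *Rps2* and *Rps12*, which had the lowest log2 fold changes between the regions, were among the members nearest to 0 in 3D (0.05, -0.06 and 0.07).

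The ribosomal genes that the choice by symbol missed had values within the range of the members. *Rack1*, a scaffold protein of the small subunit, had a log2 fold change of 0.32 in 3D (adjusted p = 0.19 by limma) and fell by 1.29 in the internal part (adjusted p = 3.76e-07). *Fau*, whose product is cleaved to the small-subunit protein Rps30, stood at 0.34 (0.172) and fell by 0.84 (4.47e-04) in the same order.

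Other mRNAs of the translation machinery had medians near or below 0 in 3D. Of 17 elongation factor and other TOP mRNAs, 1 rose and 2 fell, with a median log2 fold change of 0.04, against 9.74% of all genes that rose, 9.25% that fell and a median of -0.03, so that neither count stands apart from the background. *Tpt1*, the translationally controlled tumour protein, rose from 10.48, 10.07, 9.84 and 9.81 to 11.13, 11.13, 10.97 and 11.05 log2 CPM (1.02 ± 0.16 (SE), adjusted p = 0.00287). *Npm1*, a nucleolar chaperone of ribosome assembly, and *Hnrnpa1*, an RNA-binding protein, fell (-0.93 and -0.91, adjusted p = 0.0118 and 0.00388 by limma). *Eef1a1* and *Eef2*, the main elongation factors, stood at 0.08 and 0.20 and were not called. Of 51 genes with an Eif symbol 9 fell and none rose (median -0.27), and of 75 mitochondrial ribosomal protein genes 7 fell and none rose (median -0.21). The Eif list, taken by symbol, holds the initiation factors but also kinases (*Eif2ak1* to *Eif2ak4*) and inhibitors (*Eif4ebp1* and *Eif4ebp2*), and shares *Eif3e*, *Eif3f*, *Eif3h* and *Eif4b* with the TOP list. The count for the mitochondrial list is close to the share of all genes that fell.

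Between the regions the same lists were lower, though by less than the ribosomal protein genes. Of the 17 TOP mRNAs 8 fell and none rose (median -0.53), against 12.1% of all genes that fell and 9.58% that rose, led by *Hnrnpa1* (-1.31) and *Eef1b2* (-1.14), a subunit of the factor that recharges elongation factor 1. *Eef2* fell by 0.71 (adjusted p = 4.24e-04 by limma), while *Eef1a1* (-0.53, 0.0677) and *Tpt1* (-0.31, 0.0933) did not pass the test. The value of *Eef1a1* ranged from -0.82 to -0.33 with a sample left out, and was called without external replicate 3 or internal replicate 2. Of the 51 Eif genes 20 fell (median -0.37), and of the 75 mitochondrial ribosomal protein genes 25 fell (median -0.41), and none of either list rose, against the same shares of all genes. The share of reads of the Eif list was 0.882–0.926% in internal and 1.20–1.25% in external samples.

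Of 13 measured genes that control ribosomal protein mRNA, 3 fell in 3D and none rose (median -0.46), against 9.25% of all genes that fell and 9.74% that rose. These were *Rheb*, the activator of mTOR (-0.65), *Tial1*, an RNA-binding protein that acts on TOP mRNAs (-0.53), and *Rps6kb1*, the S6 kinase (-0.52), with adjusted p-values by limma of 0.0208, 0.026 and 0.0373. *Larp1*, which binds the TOP sequence, stood at -0.46 (0.201) and, without 2D replicate 2, at -0.72 (0.00571), *Mtor* at 0.04 (0.889) and *Myc*, a transcriptional activator of ribosome genes, at -1.10 (0.128). Between the regions 2 fell and none rose (median -0.19), against 12.1% of all genes that fell and 9.58% that rose, so that this count is close to the background. *Eif4ebp1*, which the Eif list also counts, encodes an inhibitor of the cap-binding factor and is a target of mTOR. It went from 7.65, 7.90 and 8.003 to 5.99, 6.40, 6.52 and 6.66 log2 CPM (-1.46 ± 0.17 (SE), adjusted p = 1.56e-06). *Akt1s1*, an inhibitory partner of mTOR, fell by 0.49 (0.0399). Of 8 chaperones of ribosomal proteins, *Aamp* rose (0.60) and *Heatr3* fell (-1.03) in 3D, and *Grwd1* fell between the regions (-1.21), while the others were not called, which is near the same shares of all genes.

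Cell type and cell cycle markers moved over the same contrasts. Of all genes, 12.1% were lower and 9.58% higher in the internal part, and 9.25% were lower and 9.74% higher in 3D, to be read beside the counts of these short lists. In the internal part 6 of 7 proliferation genes were lower (median -3.26), and in 3D also 6 of 7 (median -1.12), so that proliferation genes and ribosomal protein genes were both lower in the internal part but moved in opposite directions in 3D. All 4 measured genes of the fiber list were higher in the internal part (median 1.64), *Prox1*, *Maf*, *Jag1* and *Hsf4*, and in 3D 1 of 3 was higher, *Maf* (1.11). There *Prox1* (2.84, adjusted p = 0.147 by limma) and *Jag1* (-0.02) were not called. *Prox1* measured 5.12, 5.49, -1.49 and 5.22 log2 CPM in 2D and 6.52, 6.53, 6.52 and 6.13 in 3D, without overlap. Of 5 measured genes listed for lens epithelium, 4 were higher in the internal part (median 0.43) and 3 in 3D (median 0.68). This list holds *Cryab* and *Crim1*, which lens fiber cells also express. Without them, *Pax6* (0.65) and *Dkk3* (0.43) were higher in the internal part while *Six3* (0.39) was not called, and *Dkk3* (2.39), *Pax6* (0.69) and *Six3* (0.48) were higher in 3D. The 3 fibroblast markers measured in the regions summed to 0.0216–0.0332% of reads in internal and 0.0166–0.0461% in external samples, with *Col1a1* lower (-1.56) and *Dcn* (0.34) and *Pdgfra* (-0.15) not called. The 4 measured in the cultures summed to 0.0334–0.0437% in 3D and 0.00434–0.0167% in 2D, with *Dcn* higher (5.86) and *Col1a2* (-1.47), *Pdgfra* (0.81) and *Col1a1* (0.27) not called. The part of these differences in the ribosomal protein values was not tested.

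The spread between samples of a group was small for most members and large for a few. The median SD over the 79 genes was 0.26 log2 units in 2D, 0.18 in 3D, 0.24 in external and 0.16 in internal samples. *Rpl7a* had the highest SD in 2D, in 3D and in the external group, with 9.94, 5.99, 8.64 and 9.004 log2 CPM in 2D, 8.93, 7.18, 8.98 and 8.67 in 3D, 7.81, 7.08 and 6.03 in external and 6.34, 7.33, 7.57 and 6.73 in internal samples. It was lowest in the second 2D, the second 3D and the third external sample.

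In 2D, 11 genes had an SD over 0.4, a limit chosen after the values were seen, among them *Rpl7a*, *Rps6*, *Rps18*, *Rpl15*, *Rps23*, *Rps28*, *Rpl9*, *Rpl22l1*, *Rpl27* and *Rps15*. Of these, 8 had their lowest 2D value in the second sample and 9 their highest in the first, whereas the other 68 genes had their highest value in the second sample in 39 cases and their lowest in the fourth in 53. *Rps28* and *Rpl9* show the pattern, with 11.11, 9.71, 10.78 and 10.53 and 9.98, 8.57, 9.42 and 9.20 in 2D. The third external sample was lowest for 7 of the 11 and highest for 45 of the 68. *Rps18*, for example, measured 8.12, 7.58 and 6.48 in the external samples while *Rpsa* measured 10.85, 11.19 and 11.63. The cause of this split among members was not tested. Without both samples numbered 2, an alternative added after the values were seen, 7 genes rose and 1 fell in 3D, with a median of 0.33.

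**Figure D5:**
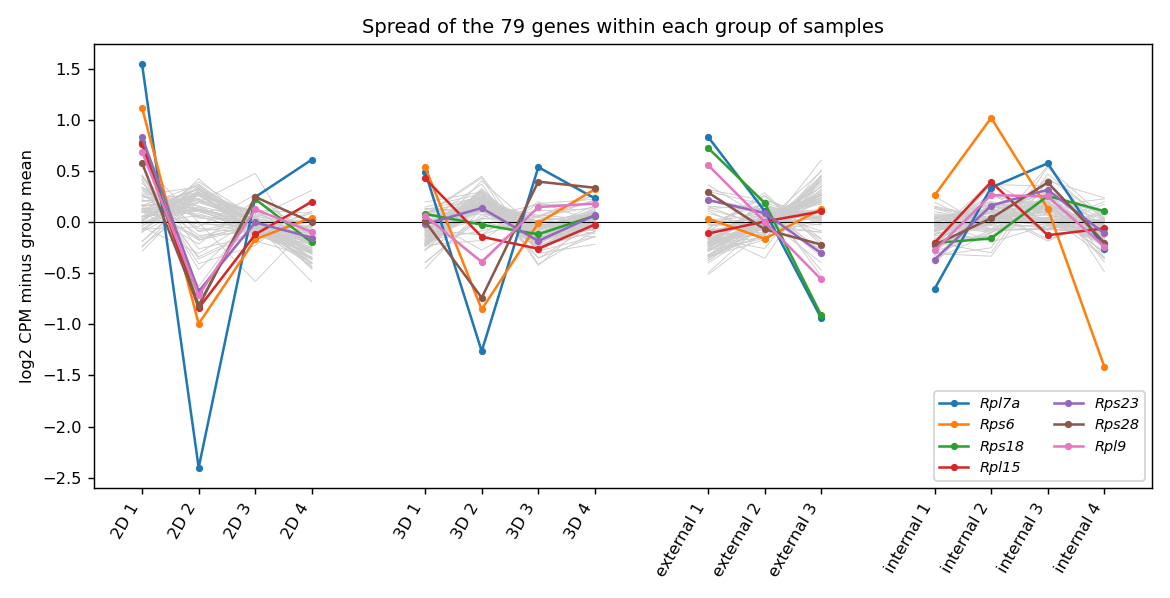
Log2 CPM of each of the 79 genes minus the mean of its group, by sample. The 7 genes with the highest SD in 2D are in colour and the others in grey; lines join samples of a group for legibility only, and Rpl7a spans the widest range in 2D.

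Properties that the choice by symbol did not use were set against the fold changes as descriptions. For 78 genes with an annotated coding sequence, the log2 fold change in 3D had a Spearman correlation of -0.37 with coding length. The 20 shortest coding sequences (75 to 357 nt) had a median of 0.41 and the 20 longest (612 to 1257 nt) a median of 0.18. Between the regions the correlation was -0.11, with medians of -0.64 and -0.80. The share of stretches around the stop codon that other genes repeat, above 0 for 77 of the 79 genes with a median of 61.4%, had Spearman correlations of 0.07 and 0.09 with the fold changes. Where the transcript is much longer than its coding sequence, as in *Rps15a* (5179 and 390 nt), these stretches may lie away from the 3′ end that is read. The length of the pyrimidine run at the start had correlations of 0.14 in 3D and -0.06 between the regions over the 58 genes with a start. Medians were 0.40 with a run of at least 8 bases and 0.30 without in 3D, and -0.80 and -0.78 between the regions.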

How the data were processed

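RNA was measured in 15 samples by QuantSeq 3′ end sequencing. Per the labels and the methods of the study, adaptors and poly(A) were removed, sense reads were mapped with STAR 2.7.8a on GRCm38.p6, those with a unique position were assigned to genes with featureCounts 1.6.0, and genes of low CPM were dropped. The annotation release is not given in the sources used here. The authors deposited log2 CPM values in 2 tables (cultures and regions), each scaled separately, which hold a prior count of 2 reads on average. The deposited fold changes and p-values of the authors' own comparisons were not used.

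Whole reads were recovered from the spacing of the log2 values, with 100.0% of them within 0.01 of a whole number, and gave the totals and shares. Tests used limma 3.58.1 (R 4.3.3) on the deposited log2 values, two-sided and with a variance trend. P-values were adjusted by Benjamini-Hochberg over every gene in the table, and the fit was tested on simulated data. A gene was called at an adjusted p under 0.05, and more strictly at an adjusted p under 0.01 with an absolute log2 fold change over 1. Paralog pairs were compared by exact permutation tests in scipy 1.17.1 (Python 3.11.15, numpy 2.4.6, pandas 2.3.3, matplotlib 3.10.9). Positions, coding lengths and sequence shared between genes came from GENCODE vM21. Shared sequence was searched as exact 50-nt stretches of the last 200 coding bases and up to 100 bases after the stop codon.

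The members and gene lists were chosen with earlier results of these data known. Named genes are, per comparison, the 4 members with the highest and the 4 with the lowest fold change (among those whose higher group mean reached 2 log2 CPM), members called by the stricter rule, paralog pairs, the members with the highest and lowest level, and *Rplp0*, *Rplp1*, *Rplp2*, *Rpl5*, *Rpl11*, *Rps27a*, *Rpsa*, *Rps6*, *Fau*, *Rack1*, *Eef1a1*, *Eef2*, *Tpt1*, *Larp1*, *Mtor* and *Myc*. Other genes were named after their values were seen. Some genes that these rules take in are not reported by name here. Alternatives were the replicate number as a block, no variance trend, scaling to library totals or by median of ratios (with and without the members), a prior of 0.5 reads, a minimum mean of 2 log2 CPM, and leaving out each sample.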

Additional observations from a re-analysis of the deposited data

Results flagged for a closer look

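In 112 groups of 4 values tested (the named genes, the share of reads and the median level of the members in the 2D, 3D and internal groups), 4 held a sample far from the others by Dixon's test, and chance gives about 1 in 20. The external group, with 3 samples, was not tested. *Rpl36al* measured 7.17 log2 CPM in the second 3D sample, against 6.60 to 6.68 in the other 3D samples. *Rpl10* measured 9.04 in the third 3D sample, against 9.31 to 9.33. *Myc* measured 3.03 in the third 3D sample, against 1.93 to 2.07. *Tpt1* measured 10.06 in the second internal sample, against 9.71 in each of the others.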

How the results depend on the processing

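For 3D minus 2D, the count of members that rose was 14 and lay between 11 and 18 with no variance trend, other scalings, a prior of 0.5 reads or the filter at 2 log2 CPM. It was between 5 and 19 with a sample left out, 7 without both samples numbered 2 and 0 by the stricter rule. No member fell, except *Rpl7l1* (1 gene) without the second 2D sample, so that the range with a sample left out was 0 to 1, without both samples numbered 2 (1), and under the replicate block (1). For internal minus external, the count of members that fell was 69 and lay between 49 (no variance trend) and 69, and was 18 by the stricter rule. The median fold changes and the shares moved by less than the spread between samples, except that the internal minus external share was -4.04 percentage points without *Rps20*, *Rps29* and *Rpl37*, the 3 members with the most reads, whose own reads are then missing.

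Labels give the same replicate numbers to several groups but do not say that they pair samples. Deviations of same-numbered samples from their group means correlated by 0.227, 0.503, 0.0661 and 0.00521 over all genes in the cultures and by -0.044, -0.065 and -0.0634 in the regions, so the numbers were not taken as pairs. Over the 79 members alone the 4 culture correlations were 0.753, 0.798, 0.417 and 0.262, and each 3D sample correlated best with the 2D sample of its number, a hint from the data and not from the design; in the regions they were -0.502, -0.241 and -0.329. In the fit with a replicate block, 19 members rose and 1 fell in 3D, with a median of 0.35, among the changes a fall of *Rpl7l1* (adjusted p = 0.0431 by limma), rises of *Rpl3* (0.0439) and *Rps27a* (0.0397) and the loss of *Rplp2* (0.0549), and 60 fell in the internal part, with a median of -0.78. There the block ended the calls of *Rps27* (0.0929) and *Rpl39* (0.165), among others.

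Signs of the fold changes of genes named by rule turned in 12 cases, none of them called, and that of the difference *Rpl22l1* minus *Rpl22* in 3D turned without 2D replicate 3 (-0.071). With a sample left out, the ranges were -0.19 to 0.047 for *Rpl8*, -0.072 to 0.14 for *Rpsa*, -0.034 to 0.21 for *Eef1a1* and -0.10 to 0.14 for *Mtor* in 3D. In the internal part they were -0.55 to 0.0072 for *Rpl9*, -0.45 to 0.37 for *Rps6*, -0.46 to 0.43 for *Rpl7a* and -0.083 to 0.20 for *Rpl22*. There *Rps6* was also 0.37 under the replicate block and 0.0017 with library totals, and *Rpl7a* was -0.0022 and -0.0099 by median of ratios with and without the members. Of the genes named by rule and not called with all samples, leaving out a sample brought calls in 3D for *Rpl7l1*, *Rps20* and *Larp1* (without 2D replicate 2) and for *Rpl3*, *Rpl10* and *Rps4x* (without 2D replicate 1), and between the regions for *Rpl9* (without external replicate 3) and *Eef1a1* (without external replicate 3 or internal replicate 2). Members outside these rules also gained calls. Without 2D replicate 1, for example, 19 members rose, of which 13 were among the 14 called with all samples. The cause was not tested. Depth limits mainly *Rps6*, with 21 to 325 reads per sample.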

Other observations

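Besides the 79 members, the culture set listed 46 and the region set 30 genes whose symbols mark them as pseudogenes or retrotransposed copies of ribosomal protein genes. Together they held between 0.0395 and 0.0622% of the reads of each culture sample and between 0.022 and 0.045% of each region sample. Their median log2 fold change was 0.09 in 3D, where 1 rose and none fell by limma, and -0.66 in the internal part, where 2 fell and none rose. Both counts are below the shares of all genes, of which 9.74% rose in 3D and 12.1% fell in the internal part.

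Between 40 and 51 of the 100 genes with the most reads in each culture sample were members. In the external samples there were 38, 43 and 44, and in the internal samples 30, 31, 35 and 30.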
